A study of Mus musculus with 10 samples.

Results

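The 37 genes that encode integrin alpha chains (18 genes), integrin beta chains (8 genes) and laminin chains (11 genes) were followed in B16F10 tumors grown from cells with and without edited *Mir25*. B16F10 is a mouse melanoma line. The 37 were picked from 55401 gene rows by symbol. Tumors were grown from *Mir25* knockout cells (KO, 5 tumors) or from cells given a non-targeting guide RNA (NTC, 5 tumors), and each tumor gave 1 bulk RNA-seq library. All 10 tumors, controls included, received combination therapy (Comb): 1000000 GVAX cells, a GM-CSF-secreting tumor cell vaccine, on days 1 and 4, then αPD-1 antibody on days 6, 9 and 12, dosed at 10 mg/kg. The labels give 50000 tumor cells per injection, a number that the methods of the study state differently, and tumors taken on day 15, and the methods give female C57BL/6J mice of 9 to 12 weeks. *Mir25* was cut only in the implanted cells, which were edited with Cas9 and several guides to the miR-25 hairpin, and the host kept its own *Mir25*, so the cells that enter a tumor were not edited. The comparison asked which adhesion genes differed between treated tumors with and without miR-25 in the melanoma cells.

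Integrins are cell-surface receptors made of 1 alpha and 1 beta chain that hold cells to the extracellular matrix or to other cells. The β2 chain and its partners are made by blood cells and serve leukocyte arrest and migration, whereas chains such as αv, α5, α6, β1 and β3 are made by melanoma, stromal and vessel cells and bind fibronectin, vitronectin, collagen or laminin. Laminins are cross-shaped trimers of 1 alpha, 1 beta and 1 gamma chain, and they form the basement membrane around vessels, nerves and muscle. By these roles the 37 genes were divided into 8 leukocyte integrins, 1 platelet integrin (*Itga2b*), 17 matrix-binding integrins and 11 laminin chains.

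A microRNA represses messages whose 3′ UTR pairs with its seed, bases 2 to 8. The seed of miR-25-3p is shared by 6 mature mouse microRNAs, so a match to it is a match to the whole family. In *Mir25* knockout B16 cells at baseline, the paper reports raised levels of several other members of this family. The mature sequences are from RefSeq (build GRCm38.p6, where the *Mir25* hairpin is at chr5:138165321-138165404 on the minus strand), and capitals mark the seed.
mmu-miR-25-3p: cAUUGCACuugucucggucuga
mmu-miR-32-5p: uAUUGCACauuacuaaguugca
mmu-miR-92a-3p: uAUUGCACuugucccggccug
mmu-miR-92b-3p: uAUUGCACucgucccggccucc
mmu-miR-363-3p: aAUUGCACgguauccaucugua
mmu-miR-367-3p: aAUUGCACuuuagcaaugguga

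The seed complement GTGCAAT, searched on the message strand of every annotated 3′ UTR (GENCODE M21, GRCm38), was found in 5 of the 37 genes, or 13.5%, against 6.93% of the 21020 genes with an annotated 3′ UTR. All 5 were matrix-binding integrins, and neither the 8 leukocyte integrins nor the 11 laminin chains held a match. The 3′ UTRs of the 3 groups differ in length, with medians of 1489 bases for the matrix-binding integrins, 454.5 for the leukocyte integrins and 210 for the laminin chains, and a longer UTR holds more matches of any motif. The 6 sites follow with the bases around them, as places where loss of miR-25 could act directly. Matches to fewer than these 7 bases and sites outside annotated 3′ UTRs were not searched. Capitals mark the 7 bases that pair with the seed, and 4 of the 6 sites are followed by an A (an 8mer match). A match is a description of the annotated sequence and does not show that the site is used.
*Itgav*, chr2:83804764-83804770, plus strand: agctctatttttGTGCAATtacatcatg
*Itgav*, chr2:83806415-83806421, plus strand: cattgttcttaaGTGCAATataacaatg
*Itgb3*, chr11:104668598-104668604, plus strand: gggaggccacaaGTGCAATtttatttta
*Itga5*, chr15:103344316-103344322, minus strand: actctgttgcaaGTGCAATaaaccccac
*Itga6*, chr2:71856469-71856475, plus strand: tctgtcttaaatGTGCAATagaaggtga
*Itga8*, chr2:12107707-12107713, minus strand: acaaaatgttatGTGCAATattttatag

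Library size was 23243707 to 27006075 reads on genes in the KO tumors and 11896643 to 28682130 in the NTC tumors. NTC replicate 1 stood apart. It had the lowest total, 42.9% of its reads were counted to no annotated feature (17.5% to 28.2% in the other tumors), and 33193 genes had a count in it (22192 to 25435 in the others). Its leukocyte and fibroblast markers were also high, so fold changes are given for all 10 tumors and also for the 9 without it. The *Mir25* row held 0 counts in every library, so these data do not check the knockout. Melanoma markers (*Tyr*, *Tyrp1*, *Dct*, *Mlana*, *Pmel*, *Mitf*, *Sox10*) summed to 11770 to 19340 CPM in KO tumors, 18960 to 21330 CPM in NTC replicates 2 to 5 and 11280 CPM in NTC replicate 1, where CPM stands for counts scaled to the library size after TMM normalization. Markers of leukocytes varied widely, and the summed CPM of 10 pan-leukocyte genes was 755 to 2842 in KO tumors, 484 to 1084 in NTC replicates 2 to 5, and 2371 in NTC replicate 1. In bulk tumors, fewer cells of a type and less RNA per cell cannot be told apart.

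Per kilobase of exon, which allows genes to be compared, the 37 genes covered a wide range of levels. *Itgb1*, the beta chain shared by most matrix receptors and by α4 on leukocytes, was the highest at 179.9 ± 19.1 CPM per kilobase (SD, n = 10). *Itgb2* followed at 64.7 ± 52.2 and *Itgav* at 36.7 ± 4.01 CPM per kilobase. *Lamc1*, *Itgb7*, *Lama4*, *Itga5*, *Itga9* and *Itgb3* averaged between 18.4 and 10.6 CPM per kilobase, and *Itgax* stood just under them at 9.69. In all, 19 genes averaged above 1 CPM per kilobase and 18 below it. Of 36 pairs of neighbours in this order, 35 had overlapping ranges over the 10 tumors, the exception being *Itgav* above *Lamc1*. *Itgb2* and *Itgb7* differed from the other high genes in their spread, with standard deviations close to their means.

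Across all genes, the comparison of KO with NTC gave few calls. edgeR's quasi-likelihood test called a gene that changed by more than 1 on the log2 scale at an adjusted p under 0.05 (Benjamini-Hochberg, over all genes tested). Log2 fold changes are given as KO against NTC with their standard error. Of 15821 genes tested on the full 10 tumors, the calls were 1 higher and 2 lower in KO, or 0.019%, and 35 of the 37 integrin and laminin genes were tested (*Itgb6* and *Lama1* were below the filter on low counts). None of the 35 was called. At an unadjusted p under 0.05 there were 3 of them, 2 higher (*Itgax* and *Itga5*) and 1 lower (*Itgb3*), against 3.99% of all genes higher and 4.85% lower. DESeq2 on the same genes and tumors called 0 of the 35, and 0.609% of the 15763 genes that it gave an adjusted p.

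Without NTC replicate 1, edgeR called 2 genes higher and 15 lower of 16078, or 0.106%, and again none of the 35. At an unadjusted p under 0.05 there were 11, with 9 higher and 2 lower, against 12% of all genes higher and 8.1% lower. DESeq2 was run on the same 9 tumors without a count filter beforehand (unfiltered DESeq2), and its own filter left low genes without an adjusted p, among them *Itgb6* and *Lama1*. It called 3 of the other 35 genes higher (*Itgb2*, *Itgax* and *Itgb5*) and 0 lower. Of the 18601 genes with an adjusted p, 3.32% were called higher and 0.731% lower. No tested gene of the 35 had KO and NTC tumors without overlap over 10 tumors (2.34% of all genes), and 1 of the 35, *Itga6*, was higher in KO without overlap over 9 tumors (2.71% of all genes).

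**Figure D1:**
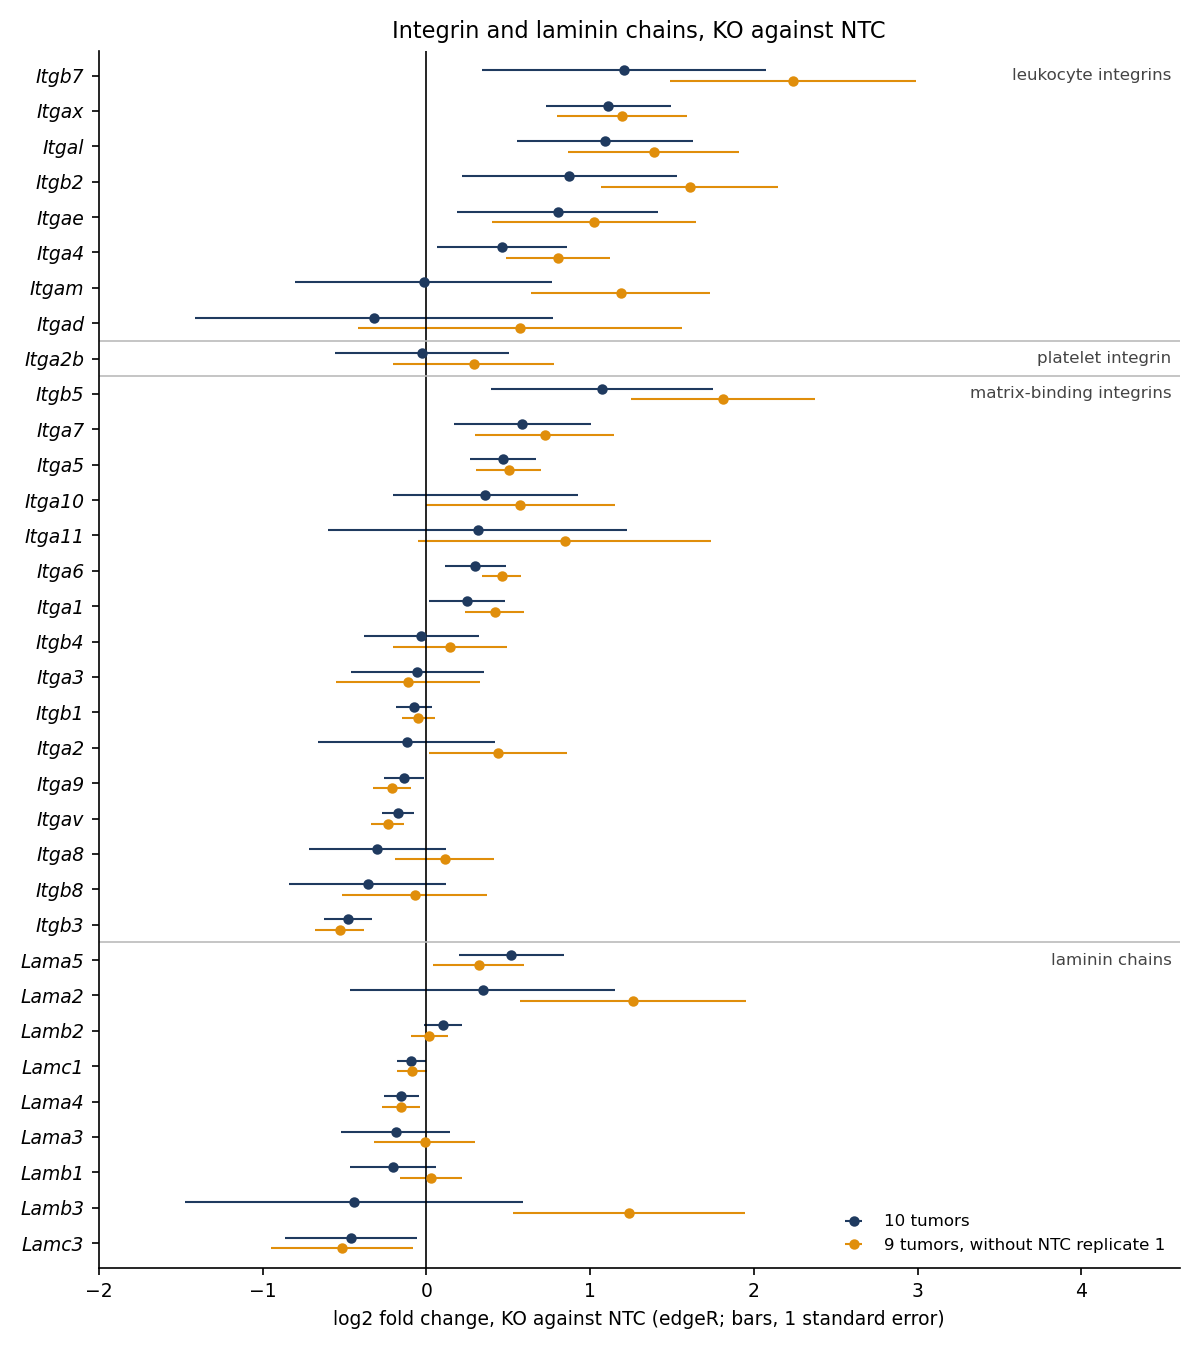
Each row is 1 tested gene, and points give the edgeR log2 fold change of KO against NTC with bars of 1 standard error, over 10 tumors (dark) and over the 9 without NTC replicate 1 (orange). Leukocyte integrins and *Itgb5* move to the right when that tumor is left out, whereas *Itgb1*, *Itgav*, *Lama4*, *Lamc1* and *Lamb2* stay near 0.

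Leukocyte integrins mostly had positive log2 fold changes, with a wide spread between tumors. Of the 8 genes, 6 had a positive log2 fold change over 10 tumors, with a median of 0.84 (all genes, 0.01), and 8 of 8 were positive over 9 tumors, with a median of 1.19 (all genes, -0.02). None was called by edgeR in either set, and an unadjusted p under 0.05 was reached by 1 over 10 tumors (*Itgax*; 3.99% of all genes were higher at this level) and by 5 over 9 tumors (*Itgax*, *Itgb2*, *Itgb7*, *Itgal* and *Itga4*, all higher, as were 12% of all genes). DESeq2 over 9 tumors called *Itgb2* and *Itgax*. KO replicate 5 moved the values the other way. With that tumor left out and NTC replicate 1 kept, the median was 0.38, and the edgeR log2 fold change of *Itgb2* was 0.47, of *Itgb7* 0.56, of *Itgae* 0.27 and of *Itga4* 0.29. Without KO replicate 2, *Itga4* was 0.27.

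*Itgb2* encodes β2, the beta chain of LFA-1, Mac-1 and CD11c/CD18, and people who lack it cannot bring neutrophils into tissue. It stood at 238, 334, 102, 92.6 and 510.4 CPM in KO replicates 1 to 5 and at 373, 46.8, 97.2, 46.3 and 136 CPM in NTC replicates 1 to 5. The groups overlapped, with KO replicates 5 and 2 and NTC replicate 1 high and NTC replicates 2 and 4 low. edgeR gave a log2 fold change of 0.87 ± 0.66 (SE; adjusted p = 0.73) over 10 tumors and 1.61 ± 0.54 (adjusted p = 0.18) over 9. DESeq2 over 9 tumors gave 1.65 ± 0.51 with an adjusted p of 0.030.

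*Itgax* encodes αX (CD11c), a β2 partner abundant on dendritic cells and on many macrophages. It measured 90.7, 67.3, 40.1, 33.1 and 86.8 CPM in KO replicates 1 to 5, against 38.9, 13.3, 29.2, 19.6 and 46.6 CPM in NTC replicates 1 to 5. All 5 KO tumors exceeded the NTC median, and the 3 highest tumors were KO, yet KO replicates 3 and 4 lay within the NTC range. It was the leukocyte integrin least moved by NTC replicate 1, with an edgeR log2 fold change of 1.11 ± 0.38 (adjusted p = 0.41) over 10 tumors and 1.19 ± 0.40 (adjusted p = 0.18) over 9. DESeq2 gave an adjusted p of 0.041 over 9 tumors and 0.13 over 10.

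*Itgal* encodes αL (CD11a), which with β2 forms LFA-1, the receptor by which T cells grip ICAM-1. KO replicates 1 to 5 had 32.6, 52.8, 19.6, 14.3 and 60.9 CPM, and NTC replicates 1 to 5 had 31.9, 6.27, 15.4, 6.67 and 25.3 CPM. NTC replicates 2 and 4 were low and KO replicates 5 and 2 high, with the other tumors of both groups between them. KO exceeded NTC by 1.09 ± 0.54 on the log2 scale (edgeR adjusted p = 0.61) over 10 tumors and 1.39 ± 0.53 (adjusted p = 0.20) over 9.

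*Itgam* encodes αM (CD11b), which with β2 forms Mac-1 of neutrophils, monocytes and macrophages. It measured 35.0, 28.7, 12.5, 16.7 and 67.2 CPM in KO replicates 1 to 5, and 109.8, 6.50, 18.6, 6.47 and 23.2 CPM in NTC replicates 1 to 5. NTC replicate 1 was the highest of all 10 tumors. The direction was not settled, with a log2 fold change of -0.02 ± 0.78 (edgeR adjusted p = 1.00) over 10 tumors and 1.19 ± 0.55 (adjusted p = 0.26) over 9, and 0.10 over 10 tumors with a skeletal muscle score as covariate. In the annotation, 3450 of the 5024 exonic bases of *Itgam* (chr7:128062640-128118491) also lie in the exons of a readthrough gene on the same strand, *Gm49368*. Reads there may have been left out as ambiguous, which would lower the level of *Itgam* in every tumor and leaves its level against other genes uncertain.

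*Itgb7* encodes β7, the partner of α4 in gut homing and of αE in epithelial retention. It ranged from 4.92 to 132.8 CPM, or 27.0-fold, the widest fold range of the 7 leukocyte chains with a count in every tumor. KO replicates 1 to 5 had 44.0, 70.1, 14.0, 10.5 and 132.8 CPM and NTC replicates 1 to 5 had 75.7, 6.40, 13.3, 4.92 and 19.9 CPM. High values came from 3 KO tumors and NTC replicate 1, and KO replicates 3 and 4 lay among the other NTC tumors. In log2 units the difference was 1.21 ± 0.87 (edgeR adjusted p = 0.72) over 10 tumors and 2.24 ± 0.75 (adjusted p = 0.18) over 9, and DESeq2 over 9 tumors gave an adjusted p of 0.055.

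*Itga4* encodes α4, which pairs with β1 or β7 and binds VCAM-1 and fibronectin. KO replicates 1 to 5 had 79.7, 131, 39.0, 60.0 and 129 CPM, and NTC replicates 1 to 5 had 125, 40.7, 41.8, 57.6 and 55.0 CPM. KO replicates 2 and 5 and NTC replicate 1 were high, and the lowest tumor was KO replicate 3. KO exceeded NTC by 0.46 ± 0.40 log2 units (edgeR adjusted p = 0.76) over 10 tumors and 0.80 ± 0.32 (adjusted p = 0.22) over 9. Antisense to *Itga4*, the gene *Cerkl* shares 1124 exonic bases, and whether strand was used in counting is not given in the sources used here.

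The other leukocyte alpha chains were low. *Itgae* encodes αE (CD103) of resident T cells and cross-presenting dendritic cells, and it measured 1.45 to 8.01 CPM in KO and 0.657 to 3.64 CPM in NTC tumors. With 10 tumors the log2 fold change came to 0.80 ± 0.61 (edgeR adjusted p = 0.73), and with 9 to 1.02 ± 0.62 (adjusted p = 0.38). *Itgad* encodes αD, a β2 partner of some macrophages, and it did not exceed 2.43 CPM, with 0 counts in NTC replicate 4. Its log2 fold change of -0.32 ± 1.09 over 10 tumors became 0.57 ± 0.99 over 9 (edgeR adjusted p = 0.95 and 0.77), and NTC replicate 1 was the highest tumor.

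**Figure D2:**
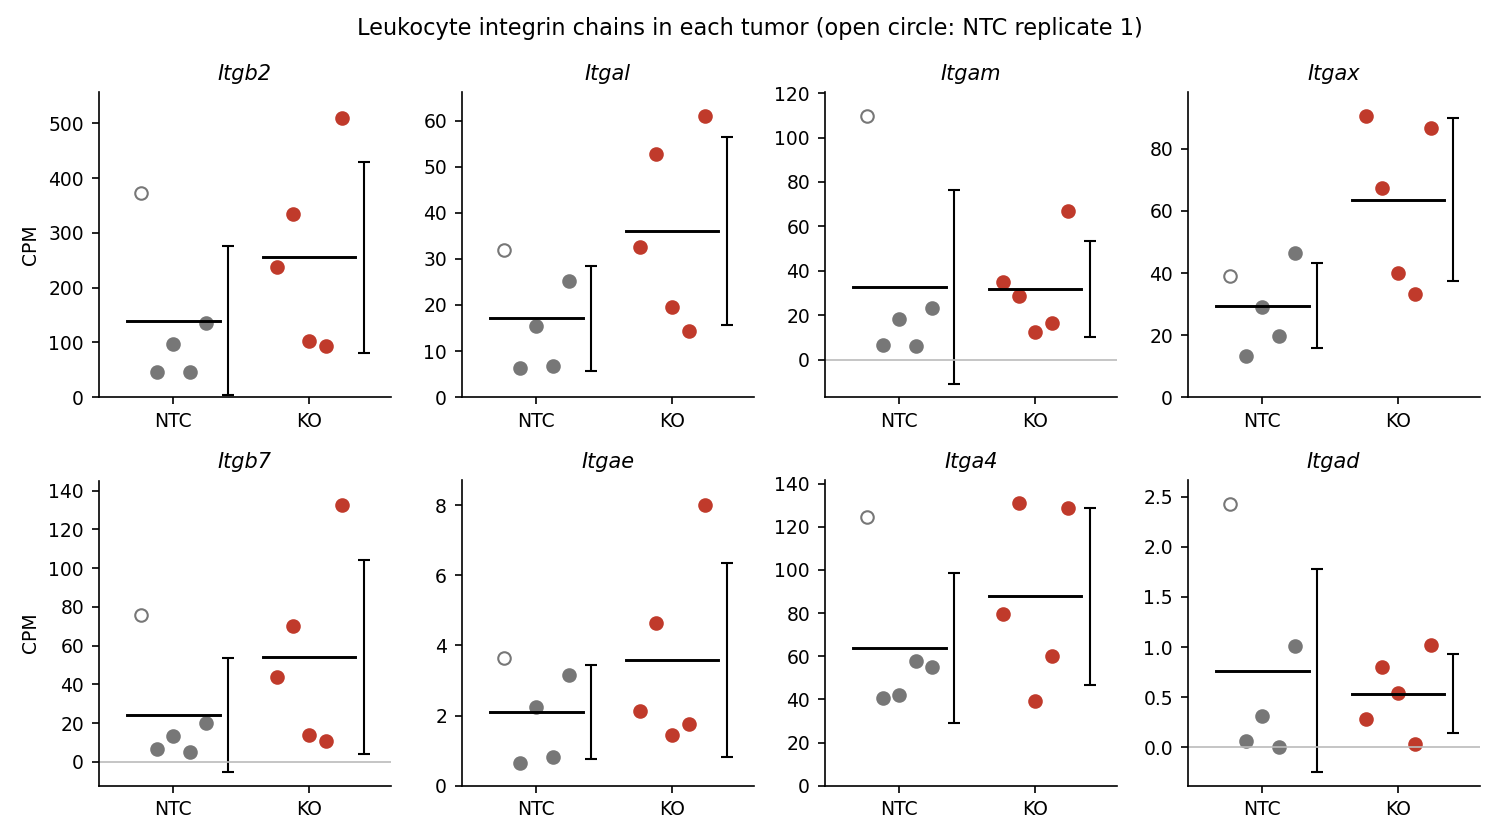
Each panel is 1 leukocyte integrin chain, with CPM on the vertical axis, 1 point per tumor, a line at the group mean and a bar of 1 SD, NTC grey and KO red. NTC replicate 1, the open circle, is the highest NTC tumor in every panel except that of *Itgax*, and KO and NTC overlap in all 8 panels.

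Most of these genes were low in the tumors with few leukocyte counts. For 6 of the 8 (not *Itga4* and *Itgad*), NTC replicates 2 and 4 were the lowest tumors, and the same tumors had the lowest pan-leukocyte sums, 484 and 486 CPM. The summed CPM of the 8 leukocyte integrins was 229 to 996 in KO tumors, 121 to 309.6 in NTC replicates 2 to 5 and 760.2 in NTC replicate 1. Beside it, the macrophage list (8 genes, among them *C1qa*, *Csf1r* and *Adgre1*) summed to 1442 to 7585 CPM in KO, 437 to 1906 CPM in NTC replicates 2 to 5 and 6397 CPM in NTC replicate 1. The T and NK list was lower, at 16.4 to 94.3, 8.77 to 41.6 and 52.0 CPM in the same order, and the neutrophil list at 9.59 to 58.0, 3.12 to 14.0 and 102 CPM. Mean CPM over 9 tumors was higher in KO for 10 of 10 pan-leukocyte, 8 of 8 macrophage, 7 of 7 T and NK, 5 of 6 neutrophil and 2 of 4 B cell genes, and over 10 tumors for 10, 8, 6, 2 and 1 of them. Of the 7 melanoma markers, 0 were higher in KO over 9 tumors and 1 over 10, and the fibroblast sum was likewise high in KO replicate 5 and NTC replicate 1 and low in NTC replicates 2 and 4. The part of tumor cell or fibroblast content in these differences was not tested.

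Relative to *Ptprc* (CD45), the surface phosphatase of nearly all leukocytes, KO and NTC tumors overlapped for every leukocyte chain. *Itgb2* measured 720.7 ± 94.5 counts per 1000 *Ptprc* counts in KO tumors and 732 ± 134 in NTC tumors (SD, n = 5 each). *Itgal* measured 109 ± 17.8 and 102 ± 23.5, and *Itgax* 219 ± 86.0 and 212 ± 98.6 counts per 1000 *Ptprc* counts. *Itgam* measured 98.7 ± 36.4 in KO and 136 ± 51.2 in NTC, where NTC replicate 1 alone stood at 227 and the other 4 NTC tumors between 107 and 122. *Itgb7* measured 129.9 ± 45.2 and 107 ± 32.1, *Itgae* 10.4 ± 3.58 and 12.4 ± 2.88, and *Itgad* 1.54 ± 1.21 and 2.54 ± 2.19. *Itga4* differed from these chains, at 293 ± 137 in KO and 508 ± 363 in NTC, with 241 to 1019 counts per 1000 *Ptprc* counts in NTC and its highest ratios in NTC replicates 4 and 2 and KO replicate 4, where *Ptprc* was lowest, and *Itga4* in those tumors was 40.7 to 60.0 CPM.

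**Figure D3:**
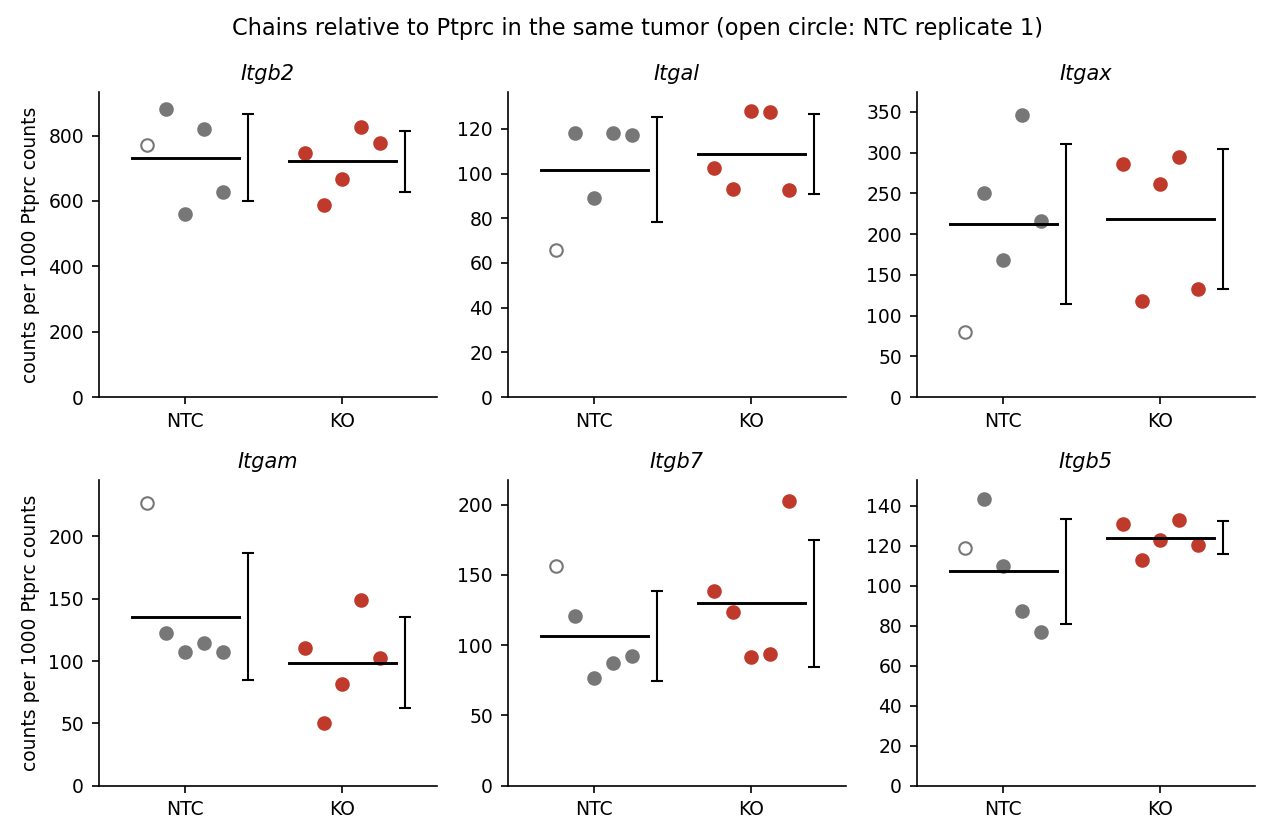
Counts of 5 leukocyte chains and of *Itgb5* per 1000 counts of *Ptprc* in the same tumor, with 1 point per tumor, a line at the mean and a bar of 1 SD. KO and NTC overlap in every panel, and the group means of *Itgb2*, 720.7 and 732, nearly coincide.

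A leukocyte score, the average log2 CPM over the 10 pan-leukocyte genes (no integrin is among them), was then added to edgeR as a covariate. In that fit over 10 tumors, 0.0632% of all genes were called and none of the 35, and the leukocyte integrins had a median of 0.02 on the log2 scale, with 4 of 8 positive. *Itgb2* came to 0.08 ± 0.11, *Itgb7* to 0.08 ± 0.20, *Itga4* to -0.04 ± 0.24 and *Itgam* to -0.49 ± 0.26. The low chains *Itgae* and *Itgad* came to -0.106 ± 0.291 and -1.025 ± 0.665. *Itgax* had the largest positive value of the leukocyte chains, 0.63 ± 0.23 (edgeR adjusted p = 0.28), and *Itgal* came to 0.34 ± 0.14 (adjusted p = 0.33). These were 2 of the 3 members higher at an unadjusted p under 0.05 in this fit, the other being *Lama5*, with 3 lower (*Itgb3*, *Lamb1* and the collagen receptor chain *Itga2*), against 6.61% of all genes higher and 6.23% lower. Without NTC replicate 1 the same fit gave *Itgax* 0.40 ± 0.25 (adjusted p = 0.70), *Itgal* 0.15 ± 0.13 (adjusted p = 0.80), *Itgam* -0.02 ± 0.25 and *Itga4* 0.14 ± 0.31, with a median of 0.13 for the leukocyte integrins. *Itgae* was -0.385 ± 0.306 there. The score and the groups were not independent, since the score was 5.56 to 7.60 in KO tumors, 4.58 to 6.20 in NTC replicates 2 to 5 and 7.30 in NTC replicate 1.

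The make-up of the β2 family, taken as the share of each alpha chain among *Itgal*, *Itgam*, *Itgax* and *Itgad* per kilobase of exon, was similar in the groups apart from 1 tumor. *Itgax* made up 44.2% to 61.2% in KO and 49.8% to 63.9% in NTC replicates 2 to 5, and *Itgam* 17.8% to 32.6% and 20.2% to 30.4%. In NTC replicate 1, *Itgam* made up 61.8% and *Itgax* 22.9%. This tumor also had the highest neutrophil sum, 102 CPM against at most 58.0 CPM in the others, and whether neutrophils account for its *Itgam* was not tested. Over the exonic length that *Itgam* does not share with the readthrough gene, its mean share was 49.8% in KO and 58.1% in NTC tumors, so its rank above or below *Itgax* depends on how shared exons were counted.

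The counter-receptors of leukocyte integrins were read from a list of 10 genes, of which 7 were tested over 10 tumors (4 positive, 3 negative) and 8 over 9 (6 positive, 2 negative), and edgeR called none. *Vcam1*, the endothelial and macrophage ligand of α4 integrins, measured 65.6, 178, 62.4, 21.4 and 161 CPM in KO replicates 1 to 5 and 67.2, 15.9, 40.5, 15.3 and 40.3 CPM in NTC replicates 1 to 5. KO replicates 2 and 5 were high, and the other 3 KO tumors lay within the NTC range. edgeR put the log2 fold change at 1.46 ± 0.59 (adjusted p = 0.51) over 10 tumors and 1.76 ± 0.59 (adjusted p = 0.18) over 9, and DESeq2 over 9 tumors called it with an adjusted p of 0.025. With the leukocyte score it was 0.57 ± 0.26 over 10 tumors and 0.33 ± 0.30 over 9 (edgeR adjusted p = 0.40 and 0.81). Of the others, 3 are named after their values were seen. *Icam1*, the ligand of LFA-1 and Mac-1, was 0.74 ± 0.49 over 10 tumors and 0.92 ± 0.49 over 9 (edgeR adjusted p = 0.69 and 0.32). With the leukocyte score *Icam1* turned negative, to -0.35 over 9 tumors. *Icam2*, an LFA-1 ligand of endothelium, was -0.59 ± 0.24 over 10 tumors and -0.60 ± 0.24 over 9 (edgeR adjusted p = 0.51 and 0.22). *Jam3*, a junctional ligand of Mac-1, was -0.33 ± 0.18 over 10 tumors and -0.50 ± 0.10 over 9 (edgeR adjusted p = 0.64 and 0.086; DESeq2 over 9 tumors, 0.0035, short of the fold threshold), with KO tumors at 21.1 to 27.6 CPM, NTC replicates 2 to 5 at 31.5 to 36.8 CPM and NTC replicate 1 lowest at 17.9 CPM.

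The platelet chain *Itga2b*, the αIIb of the fibrinogen receptor, was low, at 0.252 to 1.65 CPM in KO and 0.591 to 2.29 CPM in NTC tumors. KO against NTC stood at -0.03 ± 0.53 in log2 units (edgeR adjusted p = 0.99) over 10 tumors and 0.29 ± 0.49 over 9.

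Matrix-binding integrins had no common direction over 10 tumors. Of the 16 tested, 7 had a positive and 9 a negative log2 fold change, with a median of -0.04, and over 9 tumors 10 were positive and 6 negative, with a median of 0.28 (all genes, -0.02). edgeR called none in either set. At an unadjusted p under 0.05 there were 2 over 10 tumors (*Itga5* higher, *Itgb3* lower), where 3.99% of all genes were higher and 4.85% lower. Over 9 tumors there were 6 (*Itga1*, *Itga5*, *Itga6* and *Itgb5* higher, *Itgav* and *Itgb3* lower), where 12% of all genes were higher and 8.1% lower. DESeq2 over 9 tumors called *Itgb5* alone. The summed CPM of the 17 genes was 1281 to 1579 in KO and 1363 to 1682 in NTC tumors, most of it *Itgb1* and *Itgav*.

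Among the chains that bind the RGD motif of fibronectin and vitronectin, *Itgav* and *Itgb3* had negative and *Itga5* and *Itgb5* positive log2 fold changes. *Itgb3* encodes β3, which with αv forms the vitronectin receptor known for its rise in invasive melanoma. It measured 72.6, 48.9, 49.8, 40.05 and 49.6 CPM in KO replicates 1 to 5 and 68.8, 65.9, 68.6, 80.8 and 78.7 CPM in NTC replicates 1 to 5. Of the KO tumors, 4 lay below every NTC tumor, and KO replicate 1 lay within the NTC range. On the log2 scale the difference was -0.48 ± 0.15 (edgeR adjusted p = 0.33) over 10 tumors, -0.53 ± 0.15 (adjusted p = 0.15) over 9 and -0.50 ± 0.16 (adjusted p = 0.20) with the leukocyte score. With a skeletal muscle score in its place it was -0.28 ± 0.15 (adjusted p = 0.43). The melanoma marker sum was also lower in KO tumors than in NTC replicates 2 to 5, apart from KO replicate 3, and its part in *Itgb3* and *Itgav* was not tested.

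*Itgav* encodes αv, the partner of β3, β5, β6, β8 and β1, and was the highest alpha chain. KO replicates 1 to 5 had 426, 325, 379.6, 359.5 and 361 CPM, and NTC replicates 1 to 5 had 384, 374, 449.6, 425 and 456.5 CPM. The 3 lowest tumors were KO, and KO replicates 1 and 3 were among the NTC tumors. The difference was small, -0.17 ± 0.10 log2 units (edgeR adjusted p = 0.64) over 10 tumors and -0.23 ± 0.10 (adjusted p = 0.23) over 9.

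*Itgb5* encodes β5, an αv partner on macrophages, fibroblasts and epithelia. It was placed with the matrix-binding chains by its ligand, yet, as for *Itgb2* and *Itgb7*, KO replicates 5 and 2 and NTC replicate 1 were the 3 highest tumors and NTC replicates 4 and 2 the lowest. The fibroblast marker sum was highest in NTC replicate 1 and KO replicate 5 (1875 and 1853 CPM) and lowest in NTC replicates 2 and 4 (28.8 and 92.6 CPM), and its part in *Itgb5* was not tested. KO replicates 1 to 5 had 41.6, 64.1, 18.8, 14.9 and 78.9 CPM, and NTC replicates 1 to 5 had 57.5, 7.62, 19.1, 4.92 and 16.6 CPM. edgeR gave 1.07 ± 0.68 log2 units (adjusted p = 0.68) over 10 tumors and 1.81 ± 0.56 (adjusted p = 0.17) over 9, and DESeq2 over 9 tumors gave 1.85 ± 0.52 with an adjusted p of 0.016. With the leukocyte score as covariate it was 0.28 ± 0.16 (adjusted p = 0.48), and per 1000 *Ptprc* counts it was 124 ± 8.22 in KO and 107 ± 26.3 in NTC tumors.

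*Itga5* encodes α5, which with β1 forms the main fibronectin receptor. It measured 90.0, 57.2, 48.8, 58.3 and 90.5 CPM in KO replicates 1 to 5 and 59.3, 38.7, 42.5, 51.9 and 57.0 CPM in NTC replicates 1 to 5. KO replicates 1 and 5 were above all others, and the remaining KO tumors lay within the NTC range. KO exceeded NTC by a log2 fold change of 0.47 ± 0.20 (edgeR adjusted p = 0.52) over 10 tumors, 0.50 ± 0.20 (adjusted p = 0.22) over 9 and 0.29 ± 0.18 (adjusted p = 0.53) with the leukocyte score. *Itga8*, *Itgb6* and *Itgb8*, the low members of this class, did not exceed 4.04 CPM in any tumor.

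The laminin-binding chains were led by *Itga6*, α6, which pairs with β1 or β4. It measured 53.6, 48.6, 49.6, 44.5 and 57.6 CPM in KO replicates 1 to 5 and 62.5, 30.0, 42.8, 31.8 and 39.8 CPM in NTC replicates 1 to 5. All KO tumors were above NTC replicates 2 to 5, and NTC replicate 1 was above all KO tumors. With all 10 tumors the log2 fold change was 0.30 ± 0.19 (edgeR adjusted p = 0.67), and over 9 it was 0.46 ± 0.12 (adjusted p = 0.14). DESeq2 over 9 tumors gave an adjusted p of 0.032, with a change of 0.48 that is below the fold threshold. *Itga6* in the leukocyte-score fits was 0.12 ± 0.11 over 10 tumors and 0.28 ± 0.12 over 9 (edgeR adjusted p = 0.69 and 0.49). *Itga3*, *Itga7* and *Itgb4* did not exceed 4.75 CPM.

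*Itgb1* was close to even between the groups. It measured 725, 789.7, 608.5, 665 and 785 CPM in KO replicates 1 to 5 and 886, 739, 709, 761 and 673 CPM in NTC replicates 1 to 5. The groups overlapped over most of their range, and the log2 fold change was -0.08 ± 0.11 (edgeR adjusted p = 0.86) over 10 tumors and -0.05 ± 0.10 over 9. *Itgb2* and *Itgb7* varied far more between tumors than *Itgb1*, and the share of *Itgb1* among the 8 beta chains per kilobase ran from 43.9% to 78.2% in KO and from 54.9% to 85.3% in NTC tumors. *Itgb2* took 14.6% to 38.2% in KO and 6.93% to 30.9% in NTC tumors.

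Of the collagen-binding chains, *Itga1* (α1, of stromal cells, vessels and resident T cells) was the highest, at 29.8 to 54.0 CPM in KO and 23.9 to 51.6 CPM in NTC tumors. In edgeR it differed by 0.25 ± 0.23 log2 units (adjusted p = 0.77) over 10 tumors, 0.42 ± 0.18 (adjusted p = 0.23) over 9 and -0.04 ± 0.12 with the leukocyte score. *Itga9*, α9, a receptor of tenascin-C and VCAM-1, measured 65.3 to 96.5 CPM in KO and 76.2 to 103 CPM in NTC tumors, with a log2 fold change of -0.14 ± 0.12 over 10 tumors and -0.21 ± 0.12 over 9 (edgeR adjusted p = 0.77 and 0.34). The leukocyte-score fits gave -0.23 ± 0.12 over 10 tumors and -0.41 ± 0.10 over 9 (edgeR adjusted p = 0.46 and 0.17), the latter being the smallest adjusted p of the 35 genes in that fit.

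The 5 genes whose 3′ UTR matches the seed did not share a direction. Over 10 tumors *Itga5* and *Itga6* had positive log2 fold changes (0.47 and 0.30) and *Itgav*, *Itgb3* and *Itga8* negative ones (-0.17, -0.48 and -0.30), with a median of -0.17. *Itga8*, at 1.01 to 2.13 CPM in KO and 0.854 to 4.04 CPM in NTC tumors, turned to 0.11 ± 0.31 without NTC replicate 1. *Itgav*, with 2 matches, and *Itgb3* were the genes of the 5 with a negative value over both sets of tumors. None of the 5 was called by edgeR.

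**Figure D4:**
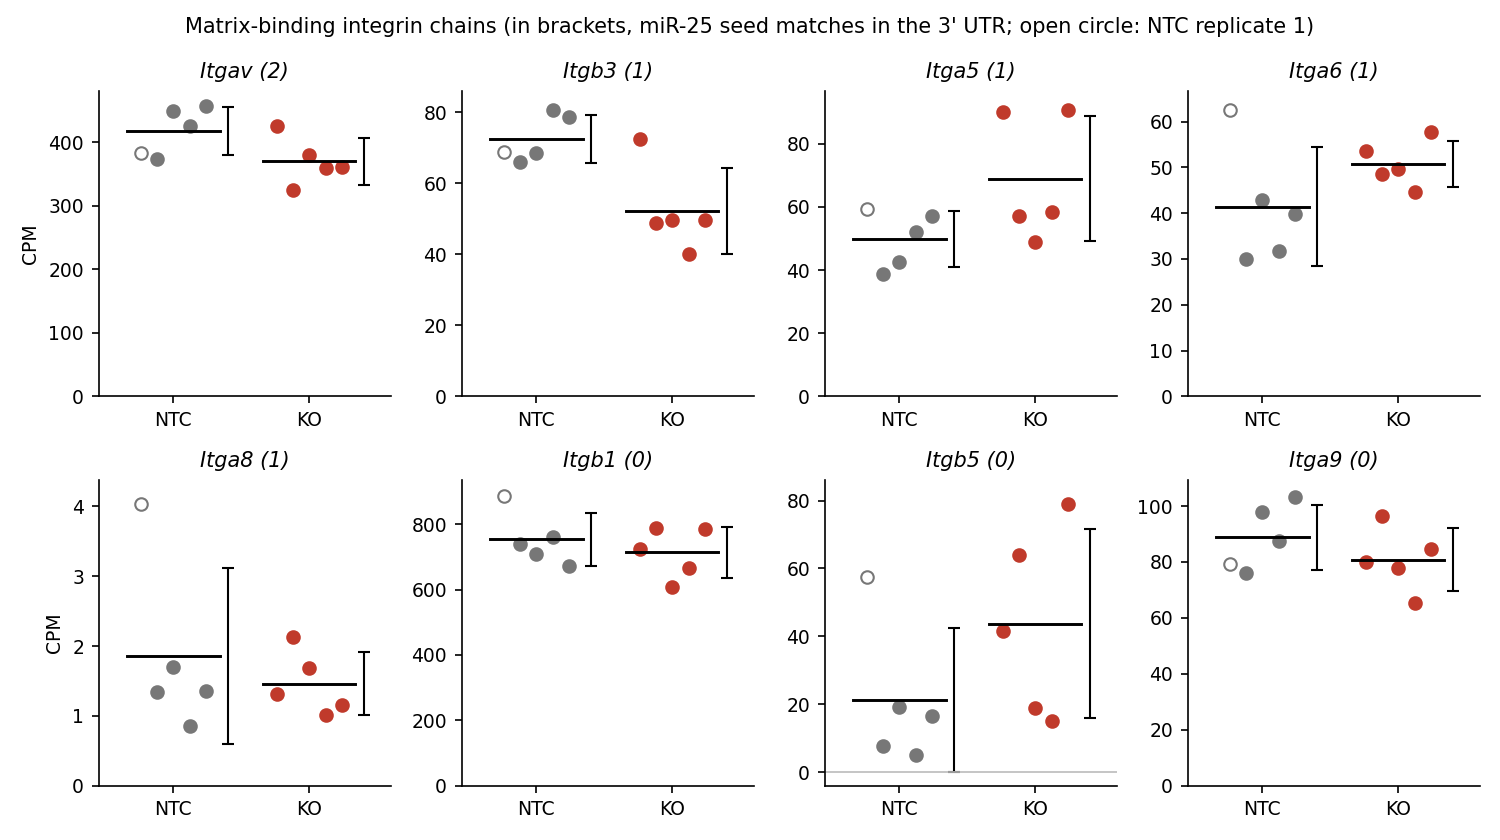
Each panel is 1 matrix-binding chain, with CPM on the vertical axis, 1 point per tumor, a line at the group mean and a bar of 1 SD, and the number of miR-25 seed matches in brackets. *Itgb3* is lower in 4 of 5 KO tumors than in every NTC tumor, *Itgb1* is even between the groups, and *Itgb5* has the wide spread of the leukocyte chains.

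Ligands and adaptors of the matrix receptors were read from lists of 9 and 19 genes. Of the matrix ligands, 7 were tested, 6 had a positive log2 fold change over 10 tumors and 7 over 9, and edgeR called none. At an unadjusted p under 0.05 there were 0 over 10 tumors and 2 over 9, *Col1a1* and *Col1a2*, both higher, against 3.99% and 12% of all genes. *Col1a1*, a chain of fibrillar collagen, measured 519.5, 431, 184, 145 and 819.6 CPM in KO replicates 1 to 5 and 590.3, 9.16, 183, 46.0 and 136 CPM in NTC replicates 1 to 5. Its values were high in KO replicate 5 and NTC replicate 1 and low in NTC replicates 2 and 4, and KO exceeded NTC by 1.13 ± 0.88 log2 units over 10 tumors and 2.13 ± 0.79 over 9 (edgeR adjusted p = 0.74 and 0.20). *Col1a2* gave 0.89 ± 0.92 and 1.96 ± 0.83 (adjusted p = 0.80 and 0.23). *Col1a1* in the leukocyte-score fit over 10 tumors was 0.55 ± 0.40 and *Col1a2* 0.35 ± 0.40 (edgeR adjusted p = 0.60 and 0.76). The fibroblast marker list summed to 392 to 1853 CPM in KO, 28.8 to 492 CPM in NTC replicates 2 to 5 and 1875 CPM in NTC replicate 1.

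Of the adaptors and kinases, 18 of 19 were tested, with 10 positive, 8 negative and none called, and those at an unadjusted p under 0.05 over 10 tumors were 3 genes, all lower (4.85% of all genes). Over 9 tumors 8 were positive and 10 negative, with 4 higher (*Fermt3*, *Parvg*, *Ptk2b* and *Pxn*, named after their values were seen) and the same 3 lower at that level (12% and 8.1% of all genes), and none called. *Fermt2*, kindlin-2, which activates beta chains in matrix-adherent cells, measured 98.2, 98.0, 107, 141 and 84.2 CPM in KO replicates 1 to 5 and 131, 168, 148, 183 and 128 CPM in NTC replicates 1 to 5. Only KO replicate 4 reached the NTC range. The edgeR difference was -0.52 ± 0.15 log2 units (adjusted p = 0.29) over 10 tumors and -0.60 ± 0.17 (adjusted p = 0.15) over 9. *Vcl*, vinculin, which ties talin to actin, was -0.41 ± 0.16 over 10 tumors and -0.49 ± 0.16 over 9 (edgeR adjusted p = 0.47 and 0.18). *Bcar1*, p130Cas, a scaffold that is phosphorylated on adhesion and is named after its values were seen, was the third gene, at -0.51 ± 0.21 over 10 tumors and -0.61 ± 0.22 over 9 (edgeR adjusted p = 0.51 and 0.20). With the leukocyte score over 10 tumors *Fermt2* was -0.35 ± 0.10 (edgeR adjusted p = 0.16), *Vcl* -0.29 ± 0.15 (0.43) and *Bcar1* -0.25 ± 0.13 (0.43), and without NTC replicate 1 as well they were -0.25 ± 0.11, -0.28 ± 0.18 and -0.15 ± 0.14 (0.54, 0.72 and 0.83). *Fermt3*, the kindlin of blood cells, stood at 0.87 ± 0.62 over 10 tumors, 1.41 ± 0.55 over 9 and 0.06 ± 0.10 with the leukocyte score (edgeR adjusted p = 0.72, 0.21 and 0.85), and was chosen for its role after values were seen.

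Laminin chains differed in both directions, with log2 fold changes of -0.46 to 0.52 over 10 tumors. Of the 10 tested, 4 had a positive and 6 a negative log2 fold change over 10 tumors, with a median of -0.12, and 6 were positive over 9 tumors, with a median of 0.02. edgeR called none and gave none an unadjusted p under 0.05 in either set, and DESeq2 over 9 tumors called none. The largest values over 9 tumors were 1.26 ± 0.69 for *Lama2* and 1.24 ± 0.71 for *Lamb3* (edgeR adjusted p = 0.33 and 0.35). Over 10 tumors these genes stood at 0.34 ± 0.81 and -0.44 ± 1.03. The summed CPM of the 11 genes was 424 to 494.5 in KO and 419 to 559 in NTC tumors.

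*Lama4*, the α4 laminin chain of vessel basement membrane, was the leading alpha chain. It measured 173, 121, 147, 170.5 and 145 CPM in KO replicates 1 to 5 and 181, 162, 179, 161.5 and 157 CPM in NTC replicates 1 to 5. The ranges overlapped, with KO replicates 2, 5 and 3 the lowest, and KO against NTC came to -0.15 ± 0.11 log2 units over 10 tumors and -0.15 ± 0.12 over 9 (edgeR adjusted p = 0.71 and 0.47). *Lama4* made up 67.7% to 78.40% of the alpha chains per kilobase in KO and 78.42% to 83.3% in NTC tumors, ranges that nearly met without overlapping.

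*Lama5*, the α5 chain of mature vessels and epithelia, took most of the remaining alpha share, 12.0% to 27.9% in KO and 5.84% to 18.4% in NTC tumors. It was chosen for mention after its values were seen. It measured 43.7, 25.6, 57.2, 43.5 and 20.9 CPM in KO replicates 1 to 5 and 12.3, 29.7, 25.2, 34.9 and 30.6 CPM in NTC replicates 1 to 5. KO replicates 3, 1 and 4 were high and NTC replicate 1 was low, and the log2 fold change was 0.52 ± 0.32 (edgeR adjusted p = 0.66) over 10 tumors and 0.32 ± 0.28 (adjusted p = 0.53) over 9. With the leukocyte score as covariate it was 0.91 ± 0.19 (edgeR adjusted p = 0.080), the smallest adjusted p of the 35 genes in that fit, and 0.78 ± 0.21 (adjusted p = 0.21) in the same fit without NTC replicate 1. KO replicates 3 and 4 also held the most skeletal muscle marker counts, 39.1 and 197 CPM against at most 6.23 CPM in the other tumors, and with a muscle score as covariate the *Lama5* change was 0.26 ± 0.42 (edgeR adjusted p = 0.79). Keratinocyte markers were highest in the same tumors, at 23.1 and 7.10 CPM against at most 3.23 CPM in the others, and their part in *Lama5* was not tested.

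*Lamb2* and *Lamb1* supplied nearly all beta chains. *Lamb2*, β2, measured 50.3 to 68.8 CPM in KO and 45.5 to 61.6 CPM in NTC tumors, with a log2 fold change of 0.10 ± 0.12 over 10 tumors and 0.02 ± 0.11 over 9 (edgeR adjusted p = 0.83 and 0.94). *Lamb1*, β1, also chosen after its values were seen, measured 36.3 to 76.0 CPM in KO, 41.4 to 58.4 CPM in NTC replicates 2 to 5 and 102.5 CPM in NTC replicate 1. Without NTC replicate 1 it was even, at 0.03 ± 0.19 log2 units against -0.20 ± 0.26 with all tumors, and the leukocyte score gave -0.53 ± 0.12 (edgeR adjusted p = 0.10). *Lamb3* had a share of at most 3.3% per kilobase in any tumor.

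*Lamc1*, γ1, was by far the main gamma chain, with 94.7% to 98.7% of the gamma chains per kilobase in KO and 95.7% to 97.0% in NTC tumors. It varied the least of the tested genes, 1.31-fold from the lowest to the highest tumor (131 to 172 CPM), and its log2 fold change was -0.09 ± 0.09 in both sets of tumors (edgeR adjusted p = 0.78 and 0.59). *Lama3* and *Lamb3*, chains found in skin and other epithelia, were rare, with *Lama3* at most 3.37 and *Lamb3* at most 4.04 CPM in any tumor. *Lama2*, the α2 chain of muscle and nerve, also named after its values were seen, ran from 1.08 to 32.3 CPM, or 29.9-fold, with its highest value in NTC replicate 1 and its lowest in NTC replicates 2 and 4.

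**Figure D5:**
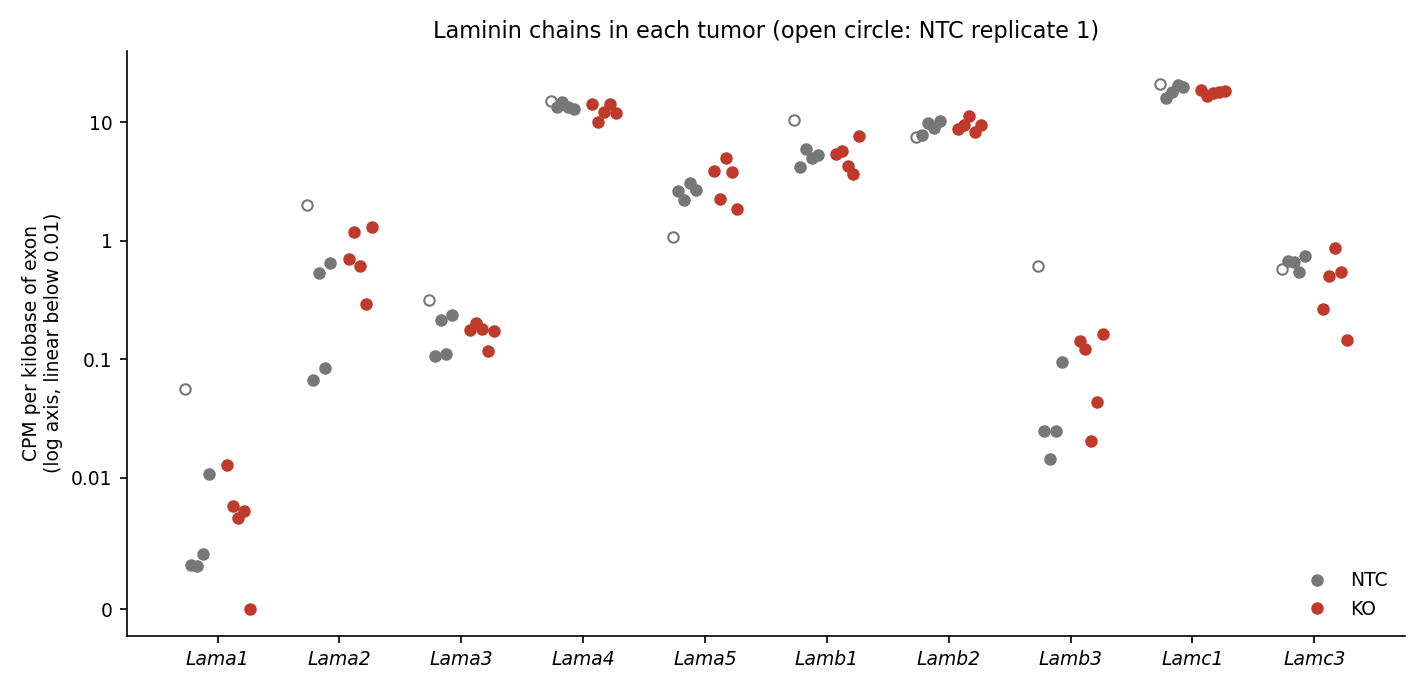
CPM per kilobase of exon for laminin chains on a log axis that is linear below 0.01, with 1 point per tumor, NTC grey and KO red. *Lama4*, *Lamb2* and *Lamc1* each lie in a narrow band. NTC replicate 1, the open circle, is on this scale the highest tumor for *Lama1*, *Lama2*, *Lama3*, *Lama4*, *Lamb1*, *Lamb3* and *Lamc1*. Its low TMM factor of 0.628 raises its CPM, and *Lama1* had at most 4 counts in any tumor.

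Partners of laminin in the basement membrane were read from a list of 15 genes, of which 13 were tested, 9 had a positive log2 fold change over 10 and over 9 tumors and none was called. *Col4a5*, the α5 chain of type IV collagen, was the 1 gene of the list at an unadjusted p under 0.05 over 10 tumors, and over 9 tumors it was joined by 4 genes that were higher (*Nid1*, *Hspg2*, *Col18a1* and *Dmd*, named after their values were seen; 12% of all genes were higher and 8.1% lower), at 0.51 to 1.21 on the log2 scale (edgeR adjusted p = 0.20 to 0.22). It measured 15.2, 12.9, 15.5, 13.5 and 10.5 CPM in KO replicates 1 to 5 and 18.2, 20.4, 20.9, 23.0 and 23.2 CPM in NTC replicates 1 to 5. Every KO tumor was below every NTC tumor, NTC replicate 1 included. The edgeR log2 fold change was -0.65 ± 0.13 (adjusted p = 0.14) over 10 tumors and -0.72 ± 0.13 (adjusted p = 0.075) over 9. DESeq2 gave adjusted p-values of 0.00073 over 10 tumors and 0.00013 over 9, with changes of -0.66 and -0.71 that are short of the fold threshold. *Bcam*, a laminin α5 receptor, was 0.68 ± 0.38 over 10 tumors and 0.68 ± 0.41 over 9 (edgeR adjusted p = 0.64 and 0.37).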

How the data were processed

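Gene counts of 10 bulk tumor libraries were used as deposited by the authors, who per the labels and the study's methods ran FastQC, Trimmomatic, HISAT2 and HTSeq on mm10. The annotation and the strand setting are not given in the sources used here. HTSeq's summary rows, which name no gene, were left out (no feature, 17.5% to 42.9% of reads, ambiguous, 0.757% to 2.54%). Counts were tested with edgeR 4.0.16 (R 4.3.3, TMM, filterByExpr, quasi-likelihood F test, p adjusted over all genes tested), with DESeq2 1.42.0 as an alternative. Both were also run on simulated data with 200 changed genes. There every gene had the same dispersion and no tumor stood apart, so the simulation does not test performance on tumors that vary as these do. Scores and other CPM values on the log scale used a prior count of 2. Exonic lengths, gene positions and 3′ UTRs came from GENCODE M21, in which 37 of 37 genes matched by symbol. The labels do not state that each tumor came from its own mouse, and p-values measure the spread between these tumors. Replicate numbers did not pair tumors.

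The genes, their division by role and the lists of pathway and marker genes were chosen with earlier results of these data known. Genes were named by this rule: every leukocyte integrin, then in each other role group those at an unadjusted p under 0.05 over 10 or 9 tumors and the one with the highest level per kilobase, and of each pathway list those called in any test or otherwise the 2 with the smallest p. Alternatives covered DESeq2, scaling, filters, thresholds, dispersions, a replicate block, leukocyte and muscle scores as covariates, and leaving out each tumor. Protein sequences were not analysed here, and not every gene is reported individually. Intervals and floors for counts are not given, and depth limits genes below about 1 CPM.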

Additional observations from a re-analysis of the deposited data

Results flagged for a closer look

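In groups of 5, a tumor whose gap to the nearest of the others exceeds 0.71 of the group's range was singled out (Dixon's 95% value). This held in 14 of 78 group tests, and 13 of the 14 were NTC replicate 1. The tests share the same tumors, so the rate of about 1 in 20 that goes with this value is no measure of chance here. NTC replicate 1 was high for *Itga4* (124.6 CPM, other NTC tumors 40.7 to 57.6), *Itgam* (109.8 CPM, 6.47 to 23.2), *Itgb2* (373.1 CPM, 46.3 to 136) and *Itgb7* (75.71 CPM, 4.92 to 19.9) among the leukocyte integrins. It was also high for *Itgb5* (57.52 CPM, 4.92 to 19.1), *Itga2* (11.45 CPM, 1.61 to 4.44), *Itga8* (4.041 CPM, 0.854 to 1.70) and *Itgb6* (2.425 CPM, 0 to 0.0407), and among laminin chains for *Lamb1* (102.5 CPM, 41.4 to 58.4), *Lamb3* (4.041 CPM, 0.0947 to 0.624) and *Lama1* (0.5388 CPM, 0.0316 to 0.104). The same tumor had the lowest total, 11896643 reads on genes (24145795 to 28682130 in the other NTC tumors), and the most genes with a count, 33193 (22192 to 23831). In the KO group, KO replicate 3 was high for *Itga3*, at 4.75 CPM against 1.26 to 1.67. The part of depth, normalization or cell content in these values was not tested.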

How the results depend on the processing

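Counts, medians over groups of genes and the fold changes of named genes were recomputed under the alternatives that apply to each, chain shares under raw counts and other lengths, and leukocyte score without NTC replicate 1, counts per *Ptprc* and lengths outside shared exons were added after seeing the data. Calls over all genes (1 higher, 2 lower) became 2 and 15 without NTC replicate 1, 24 and 72 with DESeq2, 618 and 136 with unfiltered DESeq2 without that tumor, 0 and 6 with at least 10 counts in every tumor, and 4 and 6 with the leukocyte score, also without NTC replicate 1. Genes called lower were 4 with no fold threshold, 4 with robust dispersions and 0 with the muscle score. Leaving out each tumor gave 1 to 2 higher and 0 to 15 lower. Of the 35 genes, none was called except 3 in the unfiltered DESeq2 test. Those at an unadjusted p under 0.05 (3) became 11 without NTC replicate 1, 13 (unfiltered DESeq2), 6 without a filter, 6 with the leukocyte score, 5 with it and without NTC replicate 1, and 5 with the muscle score, and leaving out each tumor gave 2 to 11. Of all genes, 3.99% were higher and 4.85% lower at that level, and 12% and 8.1% without NTC replicate 1. The leukocyte score gave 6.61% and 6.23%, or 798 and 672 of 16078 genes without NTC replicate 1. Unfiltered DESeq2 gave 2761 and 1369 genes. Shares over all genes for the other settings are not given here. Replicate numbers are shared by KO and NTC, but same-numbered tumors deviated together in only 3 of 5 pairs (correlations -0.29 to 0.63), and 2 of 5 fitted their own number best. With a replicate block, 0 genes were called lower, and 5 of the 35 had an unadjusted p under 0.05. The block gave *Itgad* 0.32 and *Itgam* 0.60.

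Directions turned as follows, and the cause was not tested. *Itgam* (-0.02) was 1.19 without NTC replicate 1, 1.22 by unfiltered DESeq2, 0.13 without a filter and 0.10 with the muscle score, and leaving out each tumor gave -0.47 to 1.19. *Itga2b* (-0.03) was 0.29, 0.31, 0.017 and 0.19 in the same 4 settings, and leaving out each tumor gave -0.24 to 0.29. *Itgad* (-0.32) was 0.57 without NTC replicate 1 and 0.63 by unfiltered DESeq2, and leaving out each tumor gave -0.69 to 0.57. With the leukocyte score *Itga4* was -0.037, *Itgae* -0.11 and *Itga1* -0.036, and without NTC replicate 1 as well *Itgae* was -0.39 and *Lamb2* -0.024. *Itga9* was 0.02 with the muscle score. *Itga8* (-0.30) was 0.11 and *Lamb1* (-0.20) 0.028 without NTC replicate 1, and 0.13 and 0.053 by unfiltered DESeq2, and leaving out each tumor gave -0.49 to 0.11 and -0.37 to 0.028. *Icam1* was -0.056 with the leukocyte score and -0.35 with it and without NTC replicate 1. Of the recomputed fold changes, 664 kept their direction and side of the threshold. The number of genes with a seed match stayed at 5 with the longest transcript alone.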
